A study of Mus musculus with 4 samples.

Results

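Collagen genes were taken as every gene whose symbol reads Col, a type number, the letter a and a chain number, which gave 44 genes of 56691 in the count table. They were sorted into 11 fibrillar genes (types I, II, III, V, XI, XXIV and XXVII), 8 genes of basement membrane collagens (types IV, XV and XVIII), 6 genes of the beaded filament collagen type VI, and 19 others. The RNA came from wild-type primary cardiac fibroblasts of mouse hearts, isolated at age P1-P3. All cells of both groups had received MGT, the transcription factors Mef2c, Gata4 and Tbx5 that turn part of a fibroblast culture toward cardiomyocyte-like cells, and all were harvested on day 7. The MGT+shNT group carried a non-targeting short hairpin RNA, and in the MGT+shScd1 group the hairpin was aimed at Scd1, the stearoyl-CoA desaturase that makes monounsaturated fatty acids, with 2 libraries in each group. The cultures were therefore mixtures of reprogramming and unreprogrammed cells, no group without MGT was analysed here, and the comparison asks how the collagen genes differed when Scd1 was silenced during reprogramming.

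A collagen molecule is a triple helix of 3 alpha chains, and each chain has its own gene. Fibrillar collagens assemble side by side into the ropes that give heart tissue its tensile strength, type IV collagen forms the meshwork of basement membranes around myocytes and vessels, and type VI collagen forms fine beaded filaments near the cell surface. Cardiac fibroblasts are the main source of fibrillar collagen in the heart, and loss of the fibroblast programme is one of the usual readouts of reprogramming toward cardiomyocytes.

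The hairpin's target was checked first. Scd1 stood at 84.2 and 63.4 CPM (counts relative to library size, scaled by edgeR's trimmed mean of M-values) in the MGT+shNT libraries and at 6.62 and 8.03 CPM in the MGT+shScd1 libraries, and the edgeR fit put the difference at -3.34 on the log2 scale (SE 0.14, adjusted p = 4.31e-09). The libraries held 15135227 to 20894972 counts, and the labels do not say whether a group's libraries stem from different cultures or animals, so that p-values here reflect only the spread between these libraries. The MGT+shNT replicate 2 library stood apart: the ribosomal gene Rn18s-rs5 took 3.32% of its counts against 0.129 to 0.199% in the other 3, and Lars2 took 0.329% against 0.0132 to 0.0171%. The controls also differed more from each other than the silenced libraries did, with a chi-square per degree of freedom of 43.6 against 2.82, or 6.01 against 2.63 without the top 10 genes. All 11 fibroblast markers had enough counts to test, from Mfap5 at 9.56 to 15.6 CPM up to Fn1 at 12792 to 17916 CPM. Their summed level was 23164 and 23282 CPM in MGT+shNT and 17396 and 18557 CPM in MGT+shScd1, and most of it was Fn1. Without Fn1 the rest stood at 5373 and 5367 against 4604 and 4469 CPM. Of all 11, 8 fell and 0 rose (16.3% of all genes tested fell and 13.1% rose). The 0 also held at an unadjusted p below 0.05 and with DESeq2 and limma-voom. The 12 macrophage markers summed to 728 and 653 CPM in MGT+shNT and to 180 and 179 CPM in MGT+shScd1 (8 fell, 1 rose). Most of this was Lyz2, without which the rest stood at 161 and 102 against 54.3 and 61.6 CPM. Cardiomyocyte markers overlapped between the groups in their sum, at 7455 and 8497 against 8010 and 7877 CPM (4 rose, 3 fell of 10). Tnnt2, Myl4 and Myl7 fell, while Tnni3, Myh6, Actc1 and Actn2 rose. Without Tnnt2 alone, the rest, which still held Myl4 and Myl7, stood at 4464 and 5161 against 5481 and 5487 CPM. The 8 myofibroblast and smooth muscle markers summed to 3827 and 4278 against 5309 and 5093 CPM (2 rose, 2 fell), a difference carried by Postn. Without Postn they overlapped, at 2593 and 3309 against 3042 and 2847 CPM. The 9 epicardial and mesothelial markers summed to 644 and 649 against 587 and 596 CPM (2 rose, 4 fell), and overlapped without Msln. In bulk RNA, fewer cells of a type and less RNA per cell cannot be told apart, and what part these marker differences have in the collagen results was not tested.

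With Scd1 silenced, collagen genes moved in both directions. Of the 40 collagen genes with enough counts to test, 13 fell and 10 rose at an adjusted p below 0.05, 17 did not pass, and 4 were not tested. Among all 16234 genes tested, 29.3% passed, 16.3% lower and 13.1% higher, while 57.5% of the collagen genes tested passed. The share passing was also higher among well-expressed genes in general: of the genes that reached a mean of 1 FPKM (fragments relative to exon length and library size) in either group, 33.4% passed (19.1% lower and 14.3% higher), against 22 of 29 collagen genes, and of those that reached 100 FPKM, 57.2% passed (25.9% lower and 31.2% higher), against 6 of 10 collagen genes. The collagen log2 fold changes ran from -1.94 to 1.22 with a median of -0.02, beside a median of 0.00 over all genes tested. The 10 members of at least 100 FPKM held 1 gene that rose, 5 that fell and 4 that did not pass. Among the 19 members between 1 and 100 FPKM, 9 rose, 7 fell and 3 did not pass. On the log2 FPKM scales with pseudocounts of 1 and 0.1, where 9.69 and 9.5% of all genes passed, 9 collagen genes fell beside 3.82 and 3.78% of all genes, and 6 rose beside 5.88 and 5.72%.

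**Figure D1:**
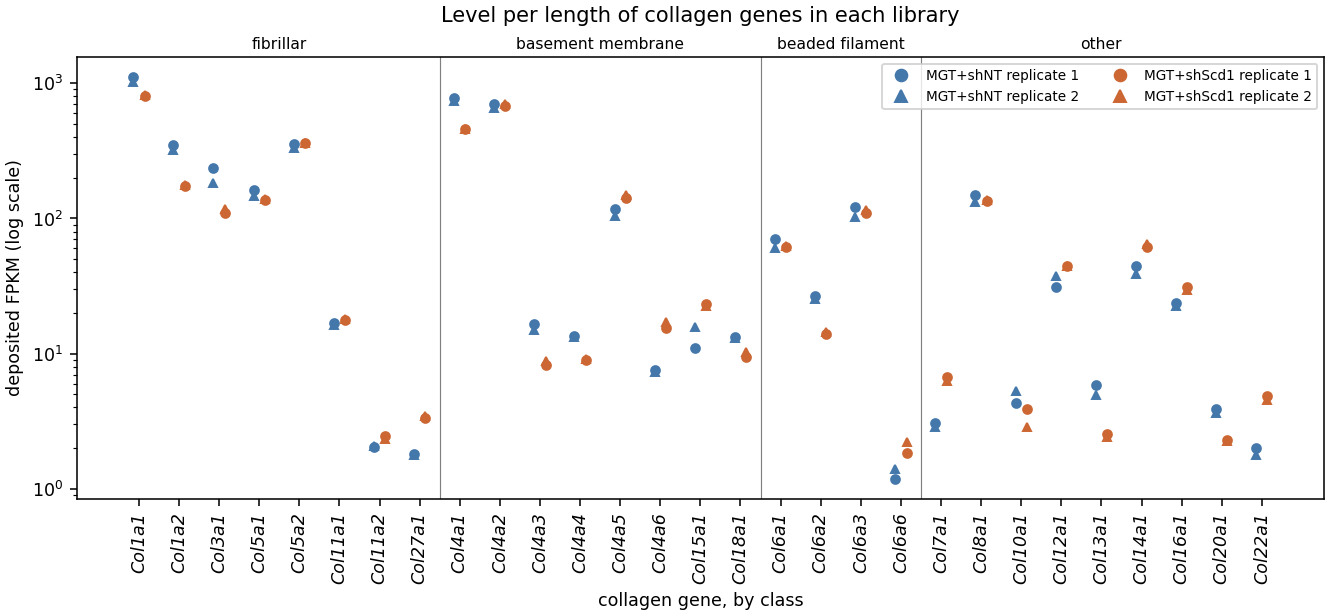
Level of each collagen gene that averaged 1 FPKM or more in either group, as deposited FPKM on a log10 axis, with 1 point per library and colour by group (2 libraries each). Col1a1 is highest in all 4 libraries, and Col4a1 lies above Col4a2 in both MGT+shNT libraries and below it in both MGT+shScd1 libraries.

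Summed by class, collagen transcripts made up a smaller part of the RNA in the MGT+shScd1 libraries. All 44 genes took 3.50 and 3.22% of all counts for MGT+shNT, against 2.71 and 2.76% for MGT+shScd1, which after scaling was 34698 ± 981 against 26460 ± 428 CPM (SD, n = 2 each), or 76.3% of the control level. Fibrillar genes were at 70.3% of control (18674 ± 735 against 13122 ± 160 CPM) and basement membrane genes at 77.5% (11838 ± 119 against 9169 ± 183 CPM). Neither class overlapped between the groups. The type VI genes were at 88.9% (1916 ± 132 against 1703 ± 68.4 CPM), whereas the others were higher, at 108.6% (2270 ± 4.86 against 2466 ± 17.5 CPM). Both depended on the scaling: as a share of all counts the type VI libraries overlapped, at 0.199 and 0.172 against 0.171 and 0.181%, and total-count scaling took the log2 ratio from -0.17 to -0.075 for type VI and from 0.12 to 0.22 for the others. A two-sided exact permutation test over the libraries gave p = 0.333 for each of these 5 sums, the smallest value that 2 against 2 libraries allow. Within collagen counts alone, the fibrillar share was 54.2 and 53.4% in MGT+shNT against 49.7 and 49.5% in MGT+shScd1, and the share of the 19 others was 6.41 and 6.69% against 9.38 and 9.26%. Basement membrane genes kept close shares, 33.7 and 34.6% against 34.6 and 34.7%. The medians over genes weigh each gene alike and did not follow the sums closely: the median log2 fold change was -0.03 for fibrillar genes, -0.29 for basement membrane genes, -0.12 for type VI genes and 0.18 for the others. The fibrillar median turned to 0.06 when libraries were scaled by total counts alone, a scaling that also moved the median of all genes to 0.09.

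**Figure D2:**
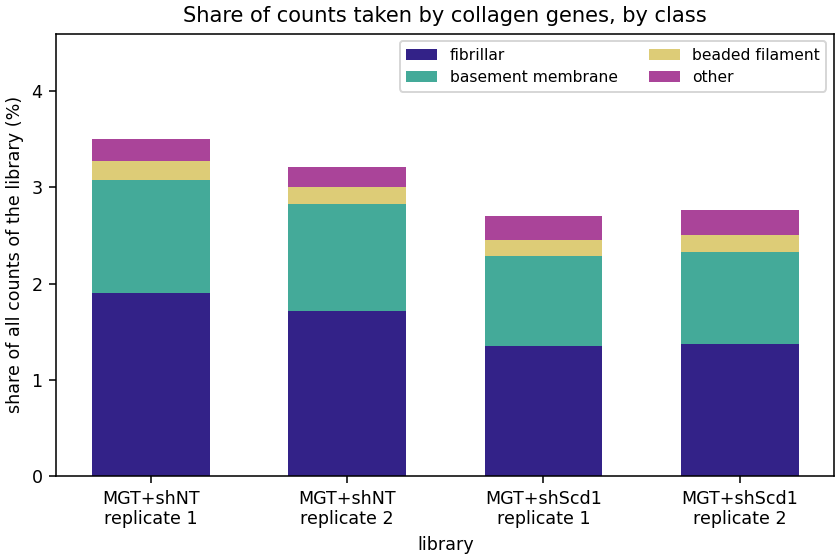
Share of all counts of a library, in percent, that fell on collagen genes, as bars stacked by class, 1 bar per library (no error bars, since each bar is 1 library). The bars reach 3.50 and 3.22% for MGT+shNT but 2.71 and 2.76% for MGT+shScd1, and most of the difference lies in the fibrillar and basement membrane segments.

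Of the 10 fibrillar genes tested, 4 fell (Col1a1, Col1a2, Col3a1 and Col5a1) and 1 rose (Col27a1). Col1a1, the chain present as 2 copies in each type I molecule (chromosome 11, 94936224 to 94953042, plus strand, GRCm38), was at 7396 and 7103 CPM in MGT+shNT and at 5097 and 5177 CPM in MGT+shScd1. Both silenced libraries lay below both controls, and 64.3% of all genes tested showed no overlap in either direction. The gene fell by 0.50 on the log2 scale (SE 0.06, adjusted p = 2.00e-05). On the log2 FPKM scales its adjusted p was 0.074 with a pseudocount of 1 and 0.069 with 0.1. Col1a2, the other type I chain (chromosome 6, 4504814 to 4541544, plus strand), was at 4367 and 4201 CPM against 2083 and 2115 CPM. That is 49.0% of control with no overlap (log2 fold change -1.03, SE 0.06, adjusted p = 4.82e-08), and it was the largest fall among the 10 collagen genes of at least 100 FPKM. Col3a1, which builds type III collagen alone and mixes into type I fibrils (chromosome 1, 45311538 to 45349706, plus strand), was at 2337 and 1906 CPM against 1050 and 1123 CPM (log2 fold change -0.97, SE 0.08, adjusted p = 2.50e-06). The controls differed from each other more for Col3a1 than for type I, yet both stood well above both silenced libraries.

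The chains of types V and XI, which form the core on which type I fibrils grow and limit their width, behaved differently from types I and III. Col5a1 was at 1395 and 1333 CPM in MGT+shNT and 1132 and 1159 CPM in MGT+shScd1 (log2 fold change -0.25, SE 0.06, adjusted p = 0.00588). The groups did not overlap, but the call was lost with total-count scaling (-0.16, adjusted p = 0.115), on both FPKM scales (-0.15 with a pseudocount of 1, -0.16 with 0.1) and when either MGT+shScd1 library was left out. Its partner Col5a2 was at 3438 and 3344 CPM against 3363 and 3373 CPM (log2 fold change -0.01, SE 0.06, adjusted p = 0.920), with the silenced libraries inside the control range. Col11a1 was as close, at 217 and 221 against 220 and 222 CPM (0.01, SE 0.06, adjusted p = 0.895). Col11a2, at 14.2 and 15.02 against 16.5 and 15.6 CPM, did not pass either (0.14, SE 0.12, adjusted p = 0.412). Col27a1, a fibrillar chain known from cartilage, was the only fibrillar gene that rose, from 23.8 and 24.5 CPM to 41.9 and 43.7 CPM (0.83, SE 0.09, adjusted p = 1.02e-05). The silenced libraries were both far above both controls, although the gene's level was low, at 1.79 FPKM in MGT+shNT and 3.40 FPKM in MGT+shScd1.

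Type IV collagen had members that moved in opposite directions: of 6 genes, 3 fell, 2 rose and 1 did not pass. These genes lie as 3 head-to-head pairs, read away from each other on opposite strands. The alpha 1 and alpha 2 chains, which build the network found in nearly all basement membranes, come from chromosome 8, where Col4a1 (11198423 to 11312826, minus strand) and Col4a2 (11312805 to 11449287, plus strand) overlap at their starts. Col4a1 was at 5883 CPM in both MGT+shNT libraries and at 3286 and 3335 CPM in MGT+shScd1, 56.3% of control (log2 fold change -0.83, SE 0.06, adjusted p = 2.29e-07). Col4a2 was at 4696 and 4563 CPM against 4337 and 4480 CPM and did not pass (-0.07, SE 0.06, adjusted p = 0.392). Both libraries of each group thus agreed closely for Col4a1 with a wide gap between groups, while the groups nearly touched for Col4a2. In deposited FPKM, which is scaled by total counts, the group means were 762 against 459 for Col4a1 and 677 against 689 for Col4a2. By this per-length level Col4a1 ranked after Col1a1 alone in MGT+shNT and below Col4a2 in MGT+shScd1.

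The alpha 3 and alpha 4 chains, which join alpha 5 in the specialised membranes of kidney, lung and inner ear, come from neighbouring genes on chromosome 1, Col4a4 (82448423 to 82586849, minus strand) and Col4a3 (82586921 to 82722059, plus strand). Col4a3 was at 168 and 158 CPM in MGT+shNT and 79.5 and 85.2 CPM in MGT+shScd1 (-0.99, SE 0.06, adjusted p = 1.64e-07). Col4a4 was at 145 and 149 CPM against 92.6 and 94.6 CPM (-0.65, SE 0.06, adjusted p = 3.66e-06). For this pair both genes fell, with no overlap between groups for either. The X-linked pair was higher in the silenced cells: Col4a5 (141475385 to 141689234, plus strand) was at 804 and 736 CPM against 920 and 963 CPM (0.29, SE 0.06, adjusted p = 0.00401). Col4a6 (141165403 to 141474076, minus strand), whose chain joins alpha 5 in smooth muscle and some epithelial membranes, was at 61.1 and 61.8 CPM against 120 and 133 CPM (1.04, SE 0.07, adjusted p = 2.02e-07). Both genes were higher in both silenced libraries than in either control; the Col4a5 call was lost without MGT+shScd1 replicate 2 (adjusted p = 0.0844) and on the FPKM scales.

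Because the genes of a pair start close to each other, the promoter windows of the type IV pairs are shown as RefSeq places them on GRCm38.p6 (250 bases before to 50 after the start, written 5′ to 3′ on the gene's own strand). Col4a3 had no window among the promoters used and is not shown. Capitals mark CCAAT boxes (letters CCAAT, or ATTGG on the other strand) and GC boxes (GGGCGG, or CCGCCC on the other strand). The Col4a1 window spans chr8:11312777-11313076 on the minus strand and the Col4a2 window chr8:11312555-11312854 on the plus strand, so that 78 bases are common to both.
Col4a1: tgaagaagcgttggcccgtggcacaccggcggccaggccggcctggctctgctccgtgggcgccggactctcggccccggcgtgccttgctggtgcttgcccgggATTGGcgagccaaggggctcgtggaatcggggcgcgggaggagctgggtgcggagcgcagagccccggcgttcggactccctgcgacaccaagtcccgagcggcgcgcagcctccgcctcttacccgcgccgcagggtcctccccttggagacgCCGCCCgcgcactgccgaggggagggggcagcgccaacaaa
Col4a2: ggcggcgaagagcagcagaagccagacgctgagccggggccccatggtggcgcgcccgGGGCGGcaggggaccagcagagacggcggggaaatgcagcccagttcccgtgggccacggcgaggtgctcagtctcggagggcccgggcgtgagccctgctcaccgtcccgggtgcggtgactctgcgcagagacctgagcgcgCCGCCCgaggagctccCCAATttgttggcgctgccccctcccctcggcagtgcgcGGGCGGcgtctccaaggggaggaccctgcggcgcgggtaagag
The gene that fell and the gene that did not pass each held 1 CCAAT box, with 1 GC box in the Col4a1 window and 3 in the Col4a2 window. The GC box of Col4a1 lies in the stretch common to both windows and is also counted, on the other strand, for Col4a2. The Col4a4 window, chr1:82586800-82587099 on the minus strand, reaches past the start of Col4a3, which is 72 bases away, and held neither motif.
Col4a4: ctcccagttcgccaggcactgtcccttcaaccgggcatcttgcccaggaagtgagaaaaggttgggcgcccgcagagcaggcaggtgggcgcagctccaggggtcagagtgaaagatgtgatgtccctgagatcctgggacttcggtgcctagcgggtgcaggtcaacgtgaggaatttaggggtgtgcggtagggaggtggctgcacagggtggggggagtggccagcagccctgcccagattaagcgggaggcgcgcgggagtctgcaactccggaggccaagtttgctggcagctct
The X-linked starts are 1309 bases apart, so the windows of Col4a5 (chrX:141475169-141475468, plus strand) and Col4a6 (chrX:141474027-141474326, minus strand) share no base. The Col4a5 window held 1 CCAAT and 1 GC box, and the Col4a6 window 1 GC box.
Col4a5: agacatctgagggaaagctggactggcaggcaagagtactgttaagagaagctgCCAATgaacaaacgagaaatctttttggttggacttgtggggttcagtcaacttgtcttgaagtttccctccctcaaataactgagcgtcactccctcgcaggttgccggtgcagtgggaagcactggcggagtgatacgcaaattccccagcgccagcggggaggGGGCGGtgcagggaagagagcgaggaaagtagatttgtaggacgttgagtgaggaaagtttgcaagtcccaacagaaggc
Col4a6: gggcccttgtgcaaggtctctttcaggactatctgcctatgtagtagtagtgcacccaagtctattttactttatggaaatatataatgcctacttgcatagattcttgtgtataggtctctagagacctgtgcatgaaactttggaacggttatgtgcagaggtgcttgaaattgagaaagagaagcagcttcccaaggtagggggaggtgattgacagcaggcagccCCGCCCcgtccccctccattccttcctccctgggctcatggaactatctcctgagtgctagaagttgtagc
Over the 35 collagen genes with a promoter in the table, searched on both strands, a CCAAT box was present in 13 (37.1%, against 37.4% of all 32851 promoter windows), a GC box in 22 (62.9% against 35.7%) and a TATA box (letters TATAAA) in 5 (14.3% against 13.6%). A gene counted when any of its windows held the box, and the 35 genes had 38 windows. Split by call, the GC box was present in 5 of 11 collagen genes that fell and 6 of 7 that rose. It was in 9 of 14 that did not pass and 2 of 3 not tested. In the same order, the CCAAT box was present in 3, 3, 5 and 2 genes and the TATA box in 3, 0, 2 and 0. These matches describe the letters in the windows and carry no statement on binding.

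The remaining basement membrane collagens, types XV and XVIII, each carry long sugar side chains and a C-terminal fragment that can limit vessel growth, and they moved in opposite directions. Col15a1, found at the outer side of the basement membrane of muscle and capillaries, was at 70.2 and 107 CPM in MGT+shNT and 142 and 137 CPM in MGT+shScd1 (0.67, SE 0.13, adjusted p = 0.00162). The controls differed widely, and the call was lost with DESeq2 (adjusted p = 0.0915) and on the FPKM scales; its value dropped to 0.40 without MGT+shNT replicate 1. Col18a1, source of endostatin, was at 94.6 and 96.6 CPM against 63.8 and 70.3 CPM and fell (-0.51, SE 0.07, adjusted p = 9.29e-05). Endothelial cells also make these collagens, and of 9 of their markers tested 1 rose (Flt1) and 2 fell (Tek and Vwf). Flt1 alone made their summed level higher in MGT+shScd1, at 110 and 109 against 141 and 146 CPM. Without it the sum was 38.5 and 30.6 CPM for MGT+shNT and 26.6 and 28.2 CPM for MGT+shScd1.

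Type VI collagen assembles from alpha 1, alpha 2 and alpha 3 in equal numbers, and a single chain of the set fell. Col6a2 (chromosome 10, 76595762 to 76623630, minus strand) was at 224 and 222 CPM in MGT+shNT and 112 and 116 CPM in MGT+shScd1, 51.1% of control (-0.97, SE 0.06, adjusted p = 7.51e-08). Col6a1, its neighbour on the same strand (76708792 to 76726168), was at 310 and 282 CPM against 262 and 266 CPM (-0.17, SE 0.06, adjusted p = 0.0609). Col6a3, the large chain that gives the filament its globular end, was at 1464 and 1304 CPM against 1264 and 1349 CPM (-0.08, SE 0.07, adjusted p = 0.404). The groups lay far apart for Col6a2, close together for Col6a1 and overlapped for Col6a3. The outcome for the latter pair rested on MGT+shNT replicate 2: without it, Col6a1 (adjusted p = 0.0016) and Col6a3 (0.0075) both passed as lower, and limma-voom with all libraries gave 0.0495 for Col6a1. Col6a6, an alternative to alpha 3, was rare and rose, from 10.99 and 13.7 CPM to 16.4 and 19.6 CPM (0.56, SE 0.14, adjusted p = 0.00910), a call lost without MGT+shScd1 replicate 2 and on the FPKM scales. Col6a4 and Col6a5, further alternatives, had at most 20 counts in any library and were not tested.

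Among the 9 FACIT collagens, which sit on the surface of fibrils and link them to other matrix, 4 rose, 1 fell, 3 did not pass and 1 was not tested. The median log2 fold change of the 8 tested was 0.29. Col14a1, which helps control fibril width early in tendon and heart growth, was at 313 and 286 CPM in MGT+shNT and 417 and 440 CPM in MGT+shScd1 (0.52, SE 0.06, adjusted p = 5.09e-05). Col16a1, found on thin fibrils and near basement membranes, was at 162 and 160 CPM against 204 and 195 CPM (0.30, SE 0.06, adjusted p = 0.00139). Col22a1, the collagen of muscle-to-tendon junctions, had the largest rise of all collagen genes, from 18.7 and 17.2 CPM to 43.4 and 40.5 CPM (1.22, SE 0.09, adjusted p = 8.67e-07). For all of these both silenced libraries lay above both controls. Col12a1, which binds the surface of type I fibrils under load, was at 483 and 607 CPM against 652 and 661 CPM (0.27, SE 0.09, adjusted p = 0.0333). Its controls lay far apart and its value depended on them: it was 0.12 without MGT+shNT replicate 1, where the call was lost, and 0.44 without MGT+shNT replicate 2. The Col12a1 call was also lost with DESeq2 (adjusted p = 0.255), on the FPKM scales and without either MGT+shScd1 library. Col20a1 fell, from 20.3 and 19.98 CPM to 11.4 and 11.2 CPM (-0.83, SE 0.11, adjusted p = 0.000118). The Col16a1 call was lost without MGT+shScd1 replicate 1 (adjusted p = 0.0541).

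The other collagens outside these families moved both ways. Col7a1, the anchoring fibril that fastens epithelial basement membranes to the tissue beneath, rose from 32.1 and 30.9 CPM in MGT+shNT to 66.8 and 63.0 CPM in MGT+shScd1 (1.04, SE 0.08, adjusted p = 4.91e-07). The 6 epithelial markers summed to only 0.726 to 1.67 CPM over the 4 libraries, and the 1 of them tested, Cldn4, rose. Col13a1, a membrane-spanning collagen of cell contacts and of the nerve-muscle junction, was at 27.8 and 24.4 CPM against 11.5 and 10.9 CPM (-1.23, adjusted p = 4.50e-06), 42.8% of control. Col8a1, a short-chain collagen of vessel walls and of the injured heart, was at 1180 and 1094 CPM against 1021 and 1032 CPM and did not pass (-0.15, SE 0.06, adjusted p = 0.0890), though it passed as lower with limma-voom (0.0421) and without MGT+shNT replicate 2 (0.0011). Col10a1, the short-chain collagen of growth plate cartilage, was at 13.7 and 17.5 CPM against 11.7 and 8.71 CPM (-0.60, SE 0.16, adjusted p = 0.0152). The libraries did not overlap for these 4 genes, as for 64.3% of all genes tested. The Col10a1 call was lost without MGT+shScd1 replicate 2 and on the FPKM scales. The 7 chondrocyte markers summed to 49.8 and 52.5 CPM in MGT+shNT and 52.9 and 61.2 CPM in MGT+shScd1, and of 4 tested 0 passed by edgeR's quasi-likelihood test, with 1 higher at an unadjusted p below 0.05 and 1 by limma-voom (0 by DESeq2).

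Below 1 FPKM there were 15 collagen genes, of which 1 fell, 10 did not pass and 4 were not tested. The one that fell was Col28a1, a collagen known from peripheral nerve, with 39 and 18 counts in the control libraries and 5 and 11 in the silenced ones (-1.94, SE 0.50, adjusted p = 0.00982). Schwann cell markers, of which 3 of 6 were tested, summed to 7.21 and 6.08 CPM in MGT+shNT and 5.77 and 5.86 CPM in MGT+shScd1. The cartilage collagens were near the limit of detection: Col2a1 had 6, 18, 9 and 8 counts in the 4 libraries (controls first), Col9a1 had 8, 6, 0 and 3, Col9a2 had 12, 11, 25 and 23, and Col9a3 had 39, 41, 46 and 35. Of the membrane-spanning members, Col23a1 had 24, 22, 53 and 41 counts (adjusted p = 0.0780), while Col17a1 and Col25a1 stayed at or below 23 counts in every library. Col5a3, Col8a2, Col19a1, Col24a1 and Col26a1 had between 16 and 106 counts and did not pass. At this depth a difference in these genes would have had to be large to be detectable.

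**Figure D3:**
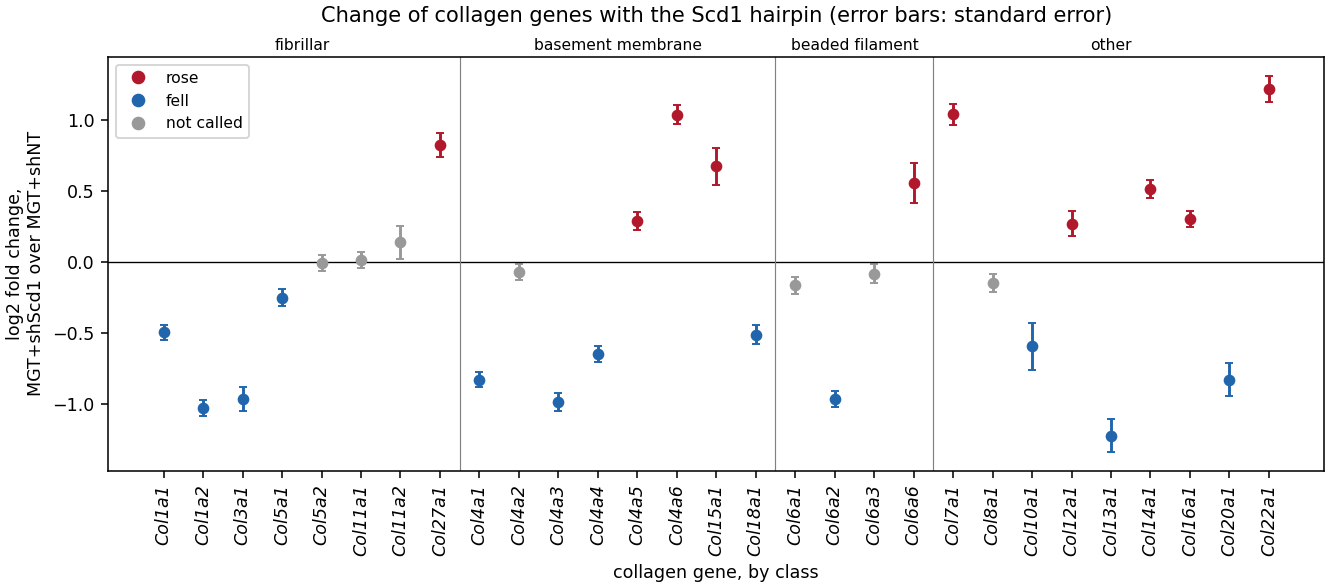
Log2 fold change, MGT+shScd1 against MGT+shNT, of the 29 collagen genes that averaged 1 FPKM or more in either group, grouped by class, with bars of 1 SE from the edgeR fit, and red, blue or grey for rose, fell or did not pass (adjusted p below 0.05). Falls reach -1.03 (Col1a2) in the fibrillar class and rises reach 1.22 (Col22a1) among the others, and the type IV genes lie on both sides of 0.

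Chains of a molecule, and a few chains of related molecules, were compared through their ratio within each library, which does not depend on how libraries are scaled. Of 13 pairs, 12 had at least 10 counts of both chains in every library, and in 11 of these the groups did not overlap. With 2 libraries a group this is common: 64.3% of all single genes tested showed no overlap in CPM, 29.3% passed the test, and the count of pairs is given as a description only. Ratios are given per exonic length. Col1a1 to Col1a2, which enter type I collagen as 2 to 1, stood at 3.21 and 3.20 for MGT+shNT against 4.63 and 4.63 for MGT+shScd1 (log2 difference 0.53). The absolute ratio depends on the length used, since the exons of Col1a2 merged over all transcripts span 12426 bases and its protein-coding transcript 5348: per transcript length it was 1.53 and 1.52 against 2.21 and 2.21, with the same log2 difference. Col4a1 to Col4a2, which also enter their molecule as 2 to 1, moved the other way, from 1.11 and 1.14 to 0.672 and 0.660 (-0.76). Col6a1 to Col6a2, which are needed in equal numbers, went from 2.63 and 2.41 to 4.46 and 4.34 (0.81). In each of these 3 pairs the libraries of a group agreed closely and the groups were far apart.

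Other pairs shifted as well. Col3a1 to Col1a1 was 0.211 and 0.179 in MGT+shNT against 0.138 and 0.145 in MGT+shScd1 (log2 difference -0.46), Col5a1 to Col5a2 was 0.455 and 0.447 against 0.377 and 0.385 (-0.24), and Col4a3 to Col4a4 was 1.24 and 1.13 against 0.915 and 0.959 (-0.34). The largest shift in type IV was between networks: Col4a5 to Col4a1 stood at 0.152 and 0.139 against 0.311 and 0.321 (1.12). Col4a5 to Col4a6, whose chains join in 1 network, stood at 15.6 and 14.1 against 9.12 and 8.62 (-0.74). In these pairs the ratio separated the groups in every library, whereas Col5a3 to Col5a1 overlapped. Col6a3 to Col6a1 barely moved, at 1.73 and 1.70 against 1.77 and 1.86 (0.08). Col11a1 to Col5a1 shifted by 0.26, and Col8a1 to Col8a2 by -0.70, where Col8a2 had as few as 16 counts. A two-sided exact permutation test gave p = 0.333, the smallest possible, for each of the 11 pairs without overlap and p = 0.667 for Col5a3 to Col5a1. Benjamini-Hochberg adjustment over the 12 cannot lower these values, and the test has no power to call any of them.

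**Figure D4:**
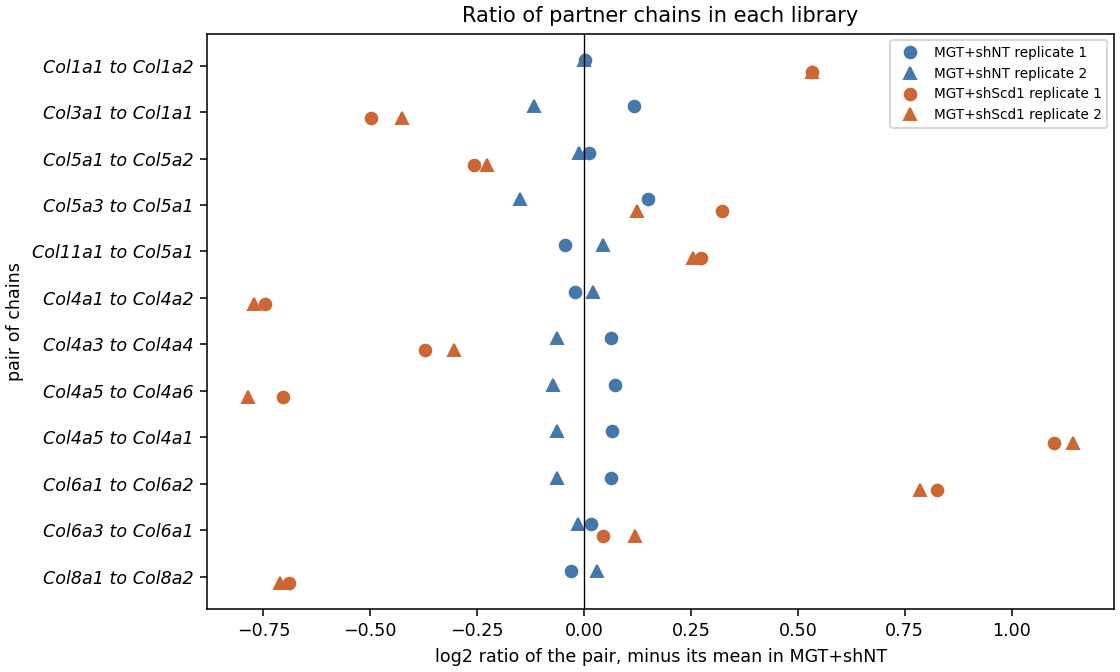
Log2 ratio of 2 chains per exonic length, minus the pair's mean log2 ratio in MGT+shNT, with 1 point per library and colour by group. Pairs with at least 10 counts of both chains in every library are shown. Each pair is set to its own control mean, so the axis does not show the ratio itself. The groups are apart for Col1a1 to Col1a2 (log2 difference 0.53), Col4a1 to Col4a2 (-0.76) and Col6a1 to Col6a2 (0.81), and overlap for Col5a3 to Col5a1.

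Many collagen messages carry target sites of the miR-29 family in the 3′ UTR, and miR-29 is known to hold collagen levels down in cardiac fibroblasts. The mature mouse sequences, from RefSeq on GRCm38.p6, share 1 seed (bases 2 to 8, in capitals), and miRNA levels were not measured.
mmu-miR-29a-3p: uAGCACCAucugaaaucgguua
mmu-miR-29b-3p: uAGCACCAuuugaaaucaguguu
mmu-miR-29c-3p: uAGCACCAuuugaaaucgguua
The complement of the seed, TGGTGCT, was searched in the 3′ UTR of 1 protein-coding transcript per gene (GENCODE M21, GRCm38). It was present in 24 of 44 collagen genes (54.5%, 0.76 sites per kb) against 2481 of 21037 genes in all (11.8%, 0.107 sites per kb), with median 3′ UTR lengths of 920.5 and 801 bases. Sites of genes that fell, of a gene that did not pass and of a gene that rose are shown on the gene's own strand, with the match in capitals: Col1a1 at chr11:94952524-94952552 (+), Col3a1 at chr1:45348968-45348996 (+), Col4a1 at chr8:11199754-11199782 (-), Col4a2 at chr8:11448345-11448373 (+), Col4a5 at chrX:141688239-141688267 (+) and Col6a2 at chr10:76596163-76596191 (-).
Col1a1: tgggaaggaatttcTGGTGCTatagaagc
Col3a1: tcaaaatgtctcaaTGGTGCTataataaa
Col4a1: ccaccgtcacaacaTGGTGCTactccccc
Col4a2: tgggaaggccacgtTGGTGCTtatccttc
Col4a5: actgctcccaccaaTGGTGCTaatatcct
Col6a2: ctccatcccatctgTGGTGCTaataggac
Both chains of the type IV alpha 1 and alpha 2 pair carried the match, and no match was found in the Col1a2 transcript searched. By call, a site was present in 7 of 13 collagen genes that fell, 7 of 10 that rose, 8 of 17 that did not pass and 2 of 4 not tested, so the match did not separate the directions.

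Beyond the collagen chains, 96 genes that make, export, process, cross-link, organise, bind or degrade collagen were followed as 7 lists. Of the 91 tested, 35 fell and 15 rose (38.5 and 16.5%, beside 16.3 and 13.1% of all genes tested), and their median log2 fold change was -0.15. With total-count scaling 31 fell and 22 rose, and over all genes that scaling turned the split from 2641 lower and 2122 higher to 1788 lower and 3074 higher (11 and 18.9% of genes tested, 29.9% in all). The count of genes that rose was 9 without MGT+shScd1 replicate 1, where 5.01% of all genes rose, and 8 without MGT+shScd1 replicate 2, where 6.02% did.

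Inside the cell, 4 of 22 genes for hydroxylation, glycosylation and folding rose, 6 fell and 12 did not pass (median 0.04). P4hb, protein disulfide isomerase and a subunit of the prolyl hydroxylase that stabilises the helix, was at 1062 and 1065 CPM in MGT+shNT and 591 and 573 CPM in MGT+shScd1 (-0.87, SE 0.06, adjusted p = 2.33e-07). P3h2, the prolyl 3-hydroxylase that acts on type IV collagen, rose from 77.0 and 71.4 CPM to 110 and 112 CPM (0.57, SE 0.06, adjusted p = 2.26e-05), and Colgalt2, which adds galactose to hydroxylysine, rose from 1.94 and 2.17 to 5.41 and 5.13 CPM (1.37, adjusted p = 0.000794). By contrast Serpinh1, the collagen chaperone HSP47, was at 1408 and 1551 against 1607 and 1548 CPM (0.09, adjusted p = 0.318; named after its values were seen). Of 12 genes for export of procollagen in large carriers, 3 fell, 9 did not pass and 0 rose by edgeR's quasi-likelihood test (0 also at an unadjusted p below 0.05 and by DESeq2 and limma-voom), and the median was -0.10. They were the COPII coat components Sec23a (-0.42, adjusted p = 0.000101) and Sar1a (-0.21, adjusted p = 0.0158) and the tethering factor Trappc2 (-0.35, adjusted p = 0.0258). The Sar1a value was -0.11 with total-count scaling, and the Trappc2 value -0.23 without MGT+shScd1 replicate 2, neither of which passed. Both calls were also lost on the FPKM scales, Sar1a without either MGT+shScd1 library, and Trappc2 with DESeq2 and total-count scaling.

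Outside the cell, propeptide processing had 4 genes that rose and 1 that fell of 9 tested (median -0.03). Tll1, a relative of BMP1 that trims the C-terminal propeptide, rose: it was at 3.39 and 3.004 against 9.31 and 8.60 CPM (1.47, adjusted p = 5.74e-05). For the N-terminal propeptide, Adamts14 rose from 23.04 and 27.2 to 55.3 and 55.6 CPM (1.15, adjusted p = 9.26e-07), and Adamts2 fell from 435 and 361 to 263 and 272 CPM (-0.57, adjusted p = 0.000109). All 6 cross-linking genes passed, 5 lower and 1 higher (median -0.39). Tgm2, a transglutaminase, fell from 125 and 134 to 84.0 and 88.9 CPM (-0.58, adjusted p = 2.03e-05) and Loxl1, a lysyl oxidase of elastic fibres, from 366 and 318 to 247 and 252 CPM (-0.46, adjusted p = 0.000247). Loxl2, a lysyl oxidase that acts on type IV collagen, was the one that rose, from 798 and 827 to 1181 and 1148 CPM (0.52, adjusted p = 2.43e-05). Genes named from these lists had to show no overlap between groups, so their separation is no finding, and the Adamts2 and Loxl1 calls were lost on the FPKM scales.

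Of 15 tested fibril organisers, 9 fell and 2 rose (median -0.41), and 4 genes of this and the receptor list (Fn1, Dcn, Lum and Ddr2) also stand in the fibroblast marker list. Tnxb, tenascin-X, which holds fibrils apart in loose tissue, was at 44.1 and 45.5 CPM in MGT+shNT and 10.5 and 12.3 CPM in MGT+shScd1 (-1.97, SE 0.10, adjusted p = 2.99e-08). Dpt, dermatopontin, fell from 111 and 120 to 36.0 and 30.0 CPM (-1.80, adjusted p = 1.15e-08), and Prelp, a leucine-rich proteoglycan that anchors basement membranes, from 410 and 438 to 125 and 123 CPM (-1.77, adjusted p = 6.25e-10). Tnxb, Dpt and Prelp were picked as the largest changes of their list. That they lay lower relative to control than any collagen of at least 1 FPKM is therefore a description only. Among 12 collagen receptors, 5 fell and 1 rose (median -0.27). Itga11 and Itga1, integrin chains for fibrillar and basement membrane collagen, were at 36.9 and 28.4 against 17.9 and 16.8 CPM (-0.92, adjusted p = 9.32e-05) and at 146 and 135 against 81.4 and 89.0 CPM (-0.72, adjusted p = 4.75e-06). Lair1, an inhibitory receptor of leukocytes, fell from 11.6 and 9.85 to 5.82 and 5.96 CPM (-0.87, adjusted p = 0.00100). On the FPKM scales the Itga11 and Lair1 calls were lost.

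Of 15 tested genes for collagen breakdown, 6 fell and 3 rose (median -0.05). Mmp8, the neutrophil collagenase, was at 6.39 and 6.78 CPM in MGT+shNT and 1.31 and 1.35 CPM in MGT+shScd1 (-2.30, SE 0.24, adjusted p = 1.36e-05). Ctsb, a lysosomal protease, fell from 1187 and 1084 to 591 and 574 CPM (-0.96, adjusted p = 2.14e-07), and Mmp14, the membrane-bound collagenase that activates pro-MMP2, from 817 and 789 to 493 and 504 CPM (-0.69, adjusted p = 2.13e-06). Macrophages also express Ctsb and Lair1, and the 12 macrophage markers stood at 728 and 653 CPM against 180 and 179 CPM in the same libraries; their part in these values was not tested.

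**Figure D5:**
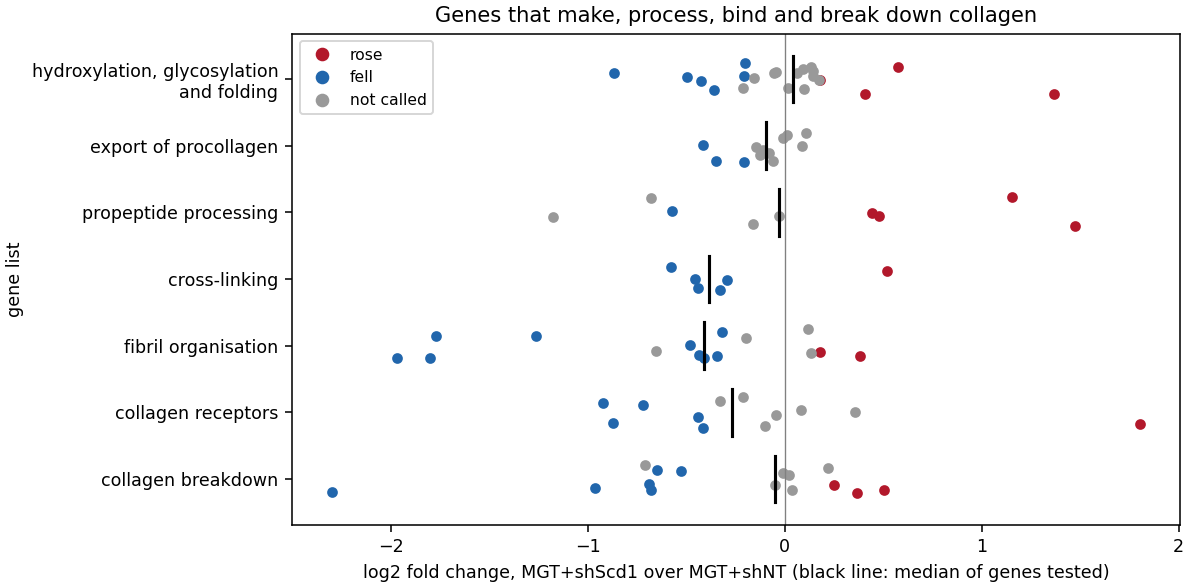
Log2 fold change, MGT+shScd1 against MGT+shNT, of the genes in 7 lists of collagen synthesis, processing, organisation, receptors and breakdown, 1 point per gene tested, red, blue or grey for rose, fell or did not pass, with a black line at the median of each list. All 6 cross-linking genes are coloured, with Loxl2 above 0, and fibril organisers reach down to -1.97 (Tnxb).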

How the data were processed

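Bulk RNA-seq of 4 libraries (2 per group, day 7) was analysed. Per the labels' protocols, TRIzol extraction was followed by rRNA depletion, a stranded library kit and paired-end sequencing on a HiSeq X, although the labels name the molecule polyA RNA. The submitters' processing notes name Trimmomatic 0.36, featureCounts of Subread 1.5.1, SAMtools and the build mm10; no source used here gives the annotation or strand setting of the counting. The deposited table holds counts per gene and, beside them, FPKM per the file headers, which equal the deposited count divided by merged exonic length and total count.

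Counts were tested with edgeR 4.0.16 (quasi-likelihood, TMM scaling, R 4.3.3) over all 16234 genes that passed filterByExpr, with Benjamini-Hochberg adjusted p below 0.05 as the call; the CPM given are TMM-scaled. Each SE of a log2 fold change was taken as its absolute value divided by the square root of the quasi-likelihood F statistic. Totals were 15135227 to 20894972 counts, and the common biological coefficient of variation was 0.067. Paired chains and class sums were compared with two-sided exact permutation tests (SciPy 1.17.1). The fit was tested on simulated data. Alternatives used DESeq2 1.42.0, limma 3.58.1 (voom, and log2 FPKM with pseudocounts of 1 and 0.1), other scalings, no filter, a gene length offset and leaving out each library. The deposited coordinates did not match mm10 positions and were not used: positions, lengths of transcripts and 3′ UTRs come from GENCODE M21, and promoters and miRNAs from RefSeq.

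The collagen genes, their classes, the lists of related genes and the cell markers were chosen with earlier results of these data known. Values in every library were given for collagen genes that averaged 1 FPKM or more in either group. Of each related list, the text names the 3 called genes with the largest absolute log2 fold change. They had to average 1 FPKM or more in either group, with no overlap between the groups. Tll1 and Colgalt2 reached 1 FPKM only in MGT+shScd1, and Mmp8, Tnxb and Lair1 only in MGT+shNT. Promoters were shown for the head-to-head pairs, except Col4a3, which had none among the promoters used. The other sequences were chosen after the values were seen, and proteins were not used here.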

Additional observations from a re-analysis of the deposited data

How the results depend on the processing

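Over 14 alternatives of 50 named genes, 651 of 700 values kept their call, 44 lost it and 5 gained it. A reversed direction was counted only where either fit passed, and 0 were found. Values that passed in neither fit could change sign: Col4a2 was at -0.07 in the main fit and at 0.025 with total-count scaling. The collagen genes that fell numbered 9 to 16 and stayed within 1.5 times the main 13. On both FPKM scales, 6 collagen genes rose (main 10) and 15 related genes fell (main 35). With a pseudocount of 0.1, 9 related genes rose (main 15). These scales called fewer genes in general. Of all genes, 3.82 and 3.78% were lower (main 16.3%) and 5.88 and 5.72% higher (main 13.1%), with pseudocounts of 1 and 0.1. Leaving out 1 library, the related genes that rose ranged from 8 to 19. Medians over a few genes were less stable. The fibrillar median was 0.064 with total-count scaling, 0.037 and 0.072 on the FPKM scales (pseudocounts 1 and 0.1), 0.014 with a length offset, and -0.13 to -0.016 leaving out 1 library. The basement membrane median was -0.20, -0.18, -0.19 and -0.25 under the same settings, and -0.34 to -0.25 leaving out 1 library. The type VI median was -0.030 with total-count scaling, -0.026 on both FPKM scales, 0.24 without a filter, and -0.17 to 0.012 leaving out 1 library. The median of the others was 0.035 with a pseudocount of 1. Log2 ratios of class sums with total-count scaling were -0.30 (all), -0.41 (fibrillar), -0.27 (basement membrane), -0.075 (type VI) and 0.22 (others). The median over all genes moved too, to 0.094 with total-count scaling and to 0.047 and 0.084 on the FPKM scales. Without a filter the type VI median covered 6 genes in place of 4. Why a class moved more or less than all genes was not tested.

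The labels number the replicates alike in both groups and do not say whether same-numbered libraries share an origin. Across genes tested, the correlation of the same-numbered libraries' deviations was -0.02. This single correlation cannot decide whether they share one. With a replicate block, 13 collagen genes fell and 10 rose, and 37 related genes fell and 15 rose. Of all genes tested, 16.9% were lower and 13.9% higher in that fit. Block medians were -0.02, -0.29, -0.12 and 0.18 for the 4 classes. With 2 libraries a group, class sums and chain ratios could not reach a permutation p under 0.333, and genes under 1 FPKM rest on few counts.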
